A study of Homo sapiens with 6 samples.

Results

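The HSP70 family is described here through 10 genes, the cytosolic HSP70 chaperones HSPA1A, HSPA1B, HSPA1L, HSPA2, HSPA6 and HSPA8, the related HSP110 proteins HSPA4, HSPA4L and HSPH1, and the mitochondrial HSP70 gene HSPA9. They were taken by symbol from the deposited arrays, and all 10 were among the 34690 gene symbols measured. Per the labels, total RNA came from SNU761, an established human hepatocellular carcinoma line, and was hybridised to Illumina BeadChips. The control group was 3 arrays of cells given the vehicle DMSO for 24 h, and the sorafenib group was 3 arrays of cells given the multikinase inhibitor sorafenib for 24 h. The labels write its dose as 3 mM, but whether the unit is right is in doubt, since cells are as a rule given micromolar doses of this drug. Each group was numbered 1 to 3, and a pair consists of both arrays that carry one number. The labels do not say whether arrays of a group came from separate cultures, so the spread between them may be partly technical. No genetic change of the cells is labelled.

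HSP70 proteins hold unfolded stretches of other proteins in a cycle driven by ATP. J-domain proteins deliver the client and start ATP hydrolysis, and nucleotide exchange factors, among them the HSP110 proteins, release ADP and reopen the chaperone. HSPA8 does this constitutively in the cytosol, HSPA1A and HSPA1B are the stress-inducible copies under heat shock factor 1 (HSF1), and HSPA9 pulls imported proteins into the mitochondrial matrix. Tumour cells, those of liver cancer included, commonly hold high levels of cytosolic HSP70.

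The arrays grouped by replicate number more than by treatment. Pearson's r, taken across tested symbols and so not over independent values, was 0.966 to 0.984 within a pair, 0.932 to 0.959 between arrays numbered 1 and 2, and 0.793 to 0.833 between arrays numbered 3 and the rest. Of 14 hepatocyte and liver cancer markers, 13 or 14 were detected on each array numbered 1 or 2 and 9 on each array numbered 3, where APOA1, APOA2, TTR, AHSG and GPC3 were not detected. Not every marker was lower there: ALB read 14.43 on control 3 against 9.63 and 9.89 on controls 1 and 2, and SERPINA1 13.51 against 13.37 and 12.81. The blood cell marker RAC2 (14.03 against 5.55 and 5.16) and the fibroblast marker LUM (11.33 against 5.04 and 5.11) were higher there. The summed log2 level of the 14 hepatocyte and liver cancer markers went from 175.2 to 174.7, from 167.9 to 164.5 and from 112.0 to 110.5 (control to sorafenib, pairs 1 to 3). The sum of 8 fibroblast markers went from 51.4 to 50.9, from 51.6 to 47.7 and from 72.4 to 68.5, so the sums of both lists were lower after sorafenib in every pair, the direction also seen for 6 of the HSP70 family genes. Of the 5 fibroblast markers tested, 3 were lower and 0 higher in all pairs, with a median difference of −0.64 and 0 called. Of the 14 hepatocyte markers 6 were lower and 1 higher, with a median of −0.06. Among these 6 are APOA1, APOA2 and TTR, whose pair 3 differences are between undetected signals. For scale, 22.2% of tested symbols read below control in each of the pairs, and 21.5% read above it. The sum of 5 endothelial markers was lower in every pair (26.0 to 29.6 in control, 25.7 to 29.0 in sorafenib), and that of 6 blood cell markers was lower in pairs 1 and 2 and higher in pair 3 (37.2 to 45.0 and 36.3 to 45.8). Only 1 endothelial marker was detected on each array numbered 1 or 2, and 0 on each numbered 3. The endothelial sums of pair 3 therefore hold undetected signals only. PTPRC, CD53, DCN, CDH5, VWF, KDR and TEK were detected on no array. The part of these markers in the HSP70 values was not tested. Every array is labelled SNU761, but whether arrays numbered 3 hold the same cells as the rest was not tested. Each pair is therefore given on its own, and results are also given without pair 3.

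The promoters of the 4 family members that one of the fits called lower after sorafenib show what these genes share and where they differ. The sequences run from 250 bases before to 50 bases after an annotated start, are from RefSeq, and a promoter was found for 10 of 10 members. Capitals mark heat shock elements, the binding motif of heat shock factors, written as 2 facing units (GAANNTTC or TTCNNGAA) or as 3 units (GAANNTTC followed by NNGAA, or TTCNNGAA followed by NNTTC), each searched on both strands; every 3-unit match contains 2-unit matches.
HSPA1A (GRCh38.p14, chr6:31815293-31815592, plus strand): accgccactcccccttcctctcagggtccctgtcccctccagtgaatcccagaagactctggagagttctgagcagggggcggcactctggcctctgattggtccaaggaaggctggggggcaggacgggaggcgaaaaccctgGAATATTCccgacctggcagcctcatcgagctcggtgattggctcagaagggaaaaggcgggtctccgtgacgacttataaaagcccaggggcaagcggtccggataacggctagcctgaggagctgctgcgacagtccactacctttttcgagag
HSPA1B (GRCh38.p14, chr6:31827488-31827787, plus strand): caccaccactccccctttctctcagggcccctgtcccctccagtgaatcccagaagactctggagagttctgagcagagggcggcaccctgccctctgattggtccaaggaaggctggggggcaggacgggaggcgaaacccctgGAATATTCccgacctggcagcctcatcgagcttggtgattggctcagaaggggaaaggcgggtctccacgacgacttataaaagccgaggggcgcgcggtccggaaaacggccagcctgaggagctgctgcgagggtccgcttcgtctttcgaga
HSPA8 (GRCh38.p14, chr11:123062087-123062386, minus strand): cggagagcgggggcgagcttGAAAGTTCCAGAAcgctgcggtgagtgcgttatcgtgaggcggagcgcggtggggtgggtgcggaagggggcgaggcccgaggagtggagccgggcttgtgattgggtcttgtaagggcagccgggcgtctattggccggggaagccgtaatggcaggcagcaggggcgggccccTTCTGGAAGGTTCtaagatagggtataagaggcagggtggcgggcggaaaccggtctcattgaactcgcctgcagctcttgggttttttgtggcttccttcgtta
HSPA2 (GRCh38.p14, chr14:64540491-64540790, plus strand): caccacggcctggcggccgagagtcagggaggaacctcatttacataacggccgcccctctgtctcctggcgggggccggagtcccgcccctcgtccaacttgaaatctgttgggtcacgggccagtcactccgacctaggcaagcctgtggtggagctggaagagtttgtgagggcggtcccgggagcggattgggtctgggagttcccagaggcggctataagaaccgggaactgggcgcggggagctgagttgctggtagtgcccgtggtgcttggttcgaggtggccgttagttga
The HSPA1A and HSPA1B windows were identical at 277 of 301 aligned positions (92.0%), and each held the same 2-unit element, 99 to 106 bases before the start of HSPA1A and 98 to 105 before that of HSPA1B. All 4 windows held CCAAT boxes (CCAAT, both strands), 1 in HSPA2 and 2 in each of the others. HSPA1A and HSPA1B also held the TATA box TATAAA at 25 to 30 and 24 to 29 bases before their starts. The HSPA8 window held a pair of 3-unit elements, GAAAGTTCCAGAA at 218 to 230 bases and TTCTGGAAGGTTC at 43 to 55 bases before the start. The HSPA2 window held neither form. The HSPA2 and HSPA8 windows lie inside the gene spans given below, so the sequence before the outer ends of these spans was not searched. Of all 35116 promoter windows of this length, 13.5% held a 2-unit and 0.49% a 3-unit element, 34.6% a CCAAT box and 11.5% TATAAA. HSPA6 was the other member with a 3-unit match (TTCGCGAAAGTTC, 62 to 74 bases before the start). HSPA1L lies head to head with HSPA1A on chromosome 6, their starts 260 bases apart, so that their windows share 241 bases and the same 2-unit element. The windows of HSPH1 and HSPA4 held no element, and that of HSPA9 held a 2-unit match across its start. HSPA4L has 3 annotated starts, and the window of 1 of them held a 2-unit match. Another HSPA4L window held 1 CCAAT box and 1 TATAAA. The HSPA1L window, which the fit did not call, held 2 CCAAT boxes and 1 TATAAA (as TTTATA). The windows of HSPA4, HSPA6, HSPA9 and HSPH1 held neither box. A match describes these letters only.

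Sorafenib arrays read lower than their paired controls for the inducible HSPA1A and HSPA1B, the constitutive HSPA8, the testis-enriched HSPA1L and HSPA2 and the HSP110 gene HSPH1, by means of 1.65-fold to 3.04-fold. The HSP110 genes HSPA4 and HSPA4L and mitochondrial HSPA9 had pairs in both directions. These are bulk RNA levels, so less RNA per cell and fewer cells with the transcript cannot be told apart. Of the 10 members, 9 were detected (detection p-value under 0.05) on at least 3 of 6 arrays and were tested, and 6 of these 9 (HSPA1A, HSPA1B, HSPA1L, HSPA2, HSPA8 and HSPH1) were lower in all 3 pairs; of all 14641 symbols tested, 22.2% were. HSPA1L met the detection filter through the control group, where it was higher, so its place among the 6 is no support; of the 8 members detected on all 6 arrays 5 were lower in all pairs, against 23.2% of the symbols so detected. Without pair 3, 7 of the 9 were lower in both remaining pairs, against 32.6% of all symbols. The members were chosen with earlier results of these data known, so these counts are descriptions only. The median log2 difference over the 9 was −0.90, against −0.00042 over all tested symbols, and the pair medians were −0.75, −0.92 and −1.08. With background estimated from all symbols the family median was −0.53. That estimate put the mean background above the median intensity of each array. With limma and the replicate number as a block (the paired fit), 0 members passed an adjusted p of 0.05, as did 0% of all symbols, although 6 of the 9, and 19% of all symbols, had an unadjusted p under 0.05. The same fit with limma's trended and robust variance estimates (the paired trended fit), which an earlier analysis of these data adopted once the plain fits had called nothing, called 4 members lower: HSPA1A, HSPA1B, HSPA2 and HSPA8. It called 0.458% of all symbols lower and 0.505% higher. Genes called by it are described as having fallen or risen, but its calls are exploratory: it called 0 symbols with background estimated from all symbols, 1 symbol and 0 members without pair 2, and 6 members without pair 3. By size alone, 4 members (HSPA1A, HSPA1B, HSPA1L and HSPA2) were lower in all pairs and at least 2-fold lower in the mean, as were 1.05% of all tested symbols. Of these, HSPA1L was at background on 2 sorafenib arrays, and with background estimated from all symbols HSPA1L (−0.07) and HSPA2 (−0.53) were no longer past that fold, while HSPA1A (−1.32) and HSPA1B (−1.59) were.

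**Figure D1:**
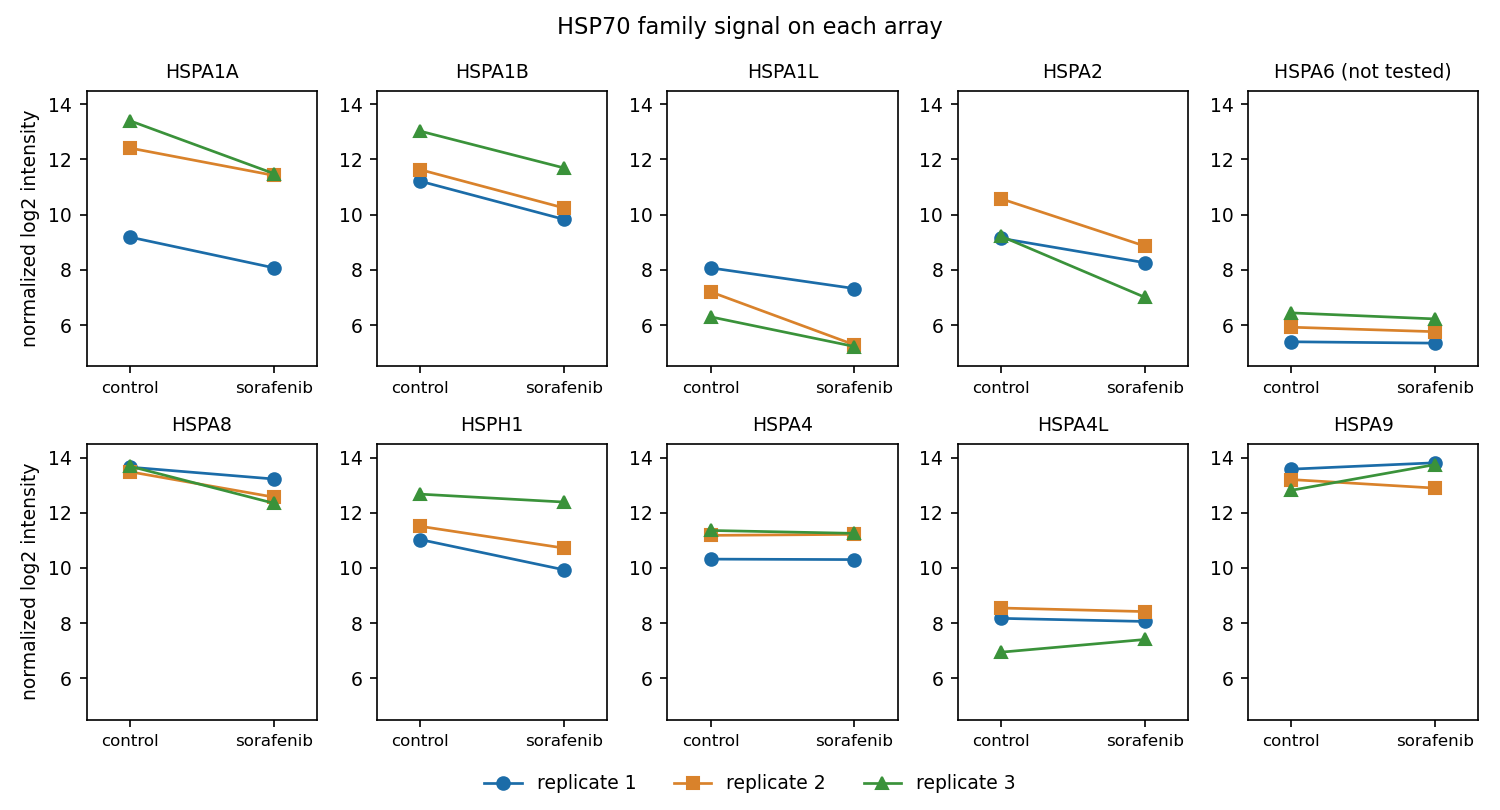
Normalized log2 intensity of each HSP70 family gene (y axis) on the control and sorafenib arrays (x axis), with a line joining the arrays of the same replicate number. HSPA1A, HSPA1B, HSPA2 and HSPA8 slope down in every pair, HSPA4 is flat, and HSPA9 goes up in pairs 1 and 3 and down in pair 2.

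HSPA1B (chr6:31827738-31830254 in GRCh38.p14), an inducible cytosolic HSP70, had normalized log2 levels of 11.21, 11.63 and 13.03 on control arrays 1 to 3 and of 9.83, 10.24 and 11.69 on sorafenib arrays 1 to 3. Every sorafenib array was below its own control, although control 1 and 2 were below sorafenib 3. The log2 difference was −1.38, −1.39 and −1.33 in pairs 1, 2 and 3, a mean of −1.37 ± 0.03 (SD, n = 3 pairs) or 2.58-fold lower. HSPA1B fell (adjusted p = 0.0202, limma paired trended fit; 0.101 in the paired fit). Among all tested symbols it stood 32nd from the lowest mean difference. It also passed in the paired fit with array weights (adjusted p = 0.0445), without background correction (0.0495) and without pair 3 (0.0269). HSPA1B did not pass in that fit with offset 50 (0.0524), median scaling (0.0694) or background from all symbols (0.167). Nor did it pass there without pair 1 (0.250) or pair 2 (0.216), or in the paired trended fit without pair 2 (0.0932). Replicate number held 57.0% of its sum of squares, treatment 43.0% and the remainder 0.0139%.

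HSPA1A (chr6:31815543-31817942), its near-identical neighbour with a start 12195 bases away, read 9.19, 12.42 and 13.41 in control and 8.08, 11.42 and 11.49 in sorafenib. The groups overlapped widely because replicate 1 was far below the others in both groups. Within pairs the difference was −1.11, −0.99 and −1.91, a mean of −1.34 ± 0.50 or 2.53-fold lower, and HSPA1A fell (adjusted p = 0.0386; 0.101 in the paired fit). From the lowest to the highest control array HSPA1A spanned 4.22 log2 units and HSPA1B 1.81, so the signals under the 2 names were not the same measurement. How the authors combined probes for these genes, and how far RNA of one binds probes of the other, is not given in the sources used here. Without pair 3 the HSPA1A difference was −1.05 (adjusted p = 0.0446 in the paired fit).

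HSPA6 (chr1:161524540-161526894) is the strictly stress-inducible HSP70 of human cells. Its log2 level was 5.39, 5.92 and 6.44 in control and 5.34, 5.76 and 6.22 in sorafenib, with a detectable signal on 2 of 3 control arrays and on 0 of 3 after sorafenib. On sorafenib arrays 2 and 3 its detection p-values were 0.0514 and 0.0536, just over the cut of 0.05. HSPA6 did not pass the detection filter and was not tested, so the counts and the median above leave it out. Control 1 was itself not detected, so no fold is given.

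HSPA1L (chr6:31809619-31815283), an HSP70 expressed mainly in testis and encoded head to head with HSPA1A, read 8.07, 7.20 and 6.30 in control and 7.32, 5.28 and 5.22 in sorafenib. It was detected on 3 of 3 control but 1 of 3 sorafenib arrays, so in pairs 2 and 3 the sorafenib level is that of background. The differences were −0.75, −1.92 and −1.08, a mean of −1.25 ± 0.60, short of the threshold (adjusted p = 0.0605; 0.113 in the paired fit). The value rested on how background was taken: it was −0.67 without correction and −0.07 with background estimated from all symbols.

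HSPA2 (chr14:64535905-64543237), known for its role in spermatogenesis and also expressed in many tumours, had a mean difference of −1.60, below that of HSPA1B (−1.37) as processed here but not with array weights (−1.33 against −1.37), without background correction (−1.25 against −1.30), without pair 3 (−1.30 against −1.39) or with background from all symbols (−0.53 against −1.59). It read 9.14, 10.58 and 9.22 in control and 8.26, 8.86 and 7.01 in sorafenib. Every sorafenib array was below every control array, which held for 3.25% of all tested symbols. The differences were −0.88, −1.72 and −2.21, a mean of −1.60 ± 0.67 or 3.04-fold lower, the 10th lowest of all tested symbols. HSPA2 fell (adjusted p = 0.0409; 0.101 in the paired fit). It was −1.30 without pair 3 (adjusted p = 0.0395 in the paired fit), and with background estimated from all symbols it was −0.53.

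HSPA8 (chr11:123057489-123062462), the constitutive HSC70 that also strips clathrin from vesicles and carries clients to the lysosome in chaperone-mediated autophagy, read 13.65, 13.48 and 13.69 in control. In sorafenib it read 13.22, 12.57 and 12.35. The control arrays lay within 0.20 log2 units of each other, all sorafenib arrays lay below them, and HSPA8 and HSPA2 were the only tested members whose groups were fully apart. The differences were −0.43, −0.92 and −1.34, a mean of −0.90 ± 0.46 or 1.86-fold lower. HSPA8 fell (adjusted p = 0.0474; 0.131 in the paired fit), and without pair 3 the difference was −0.67 (adjusted p = 0.146 in the paired fit). Treatment held 73.2% of its sum of squares and replicate number 14.1%, against 13.4% and 85.3% for HSPA1A.

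**Figure D2:**
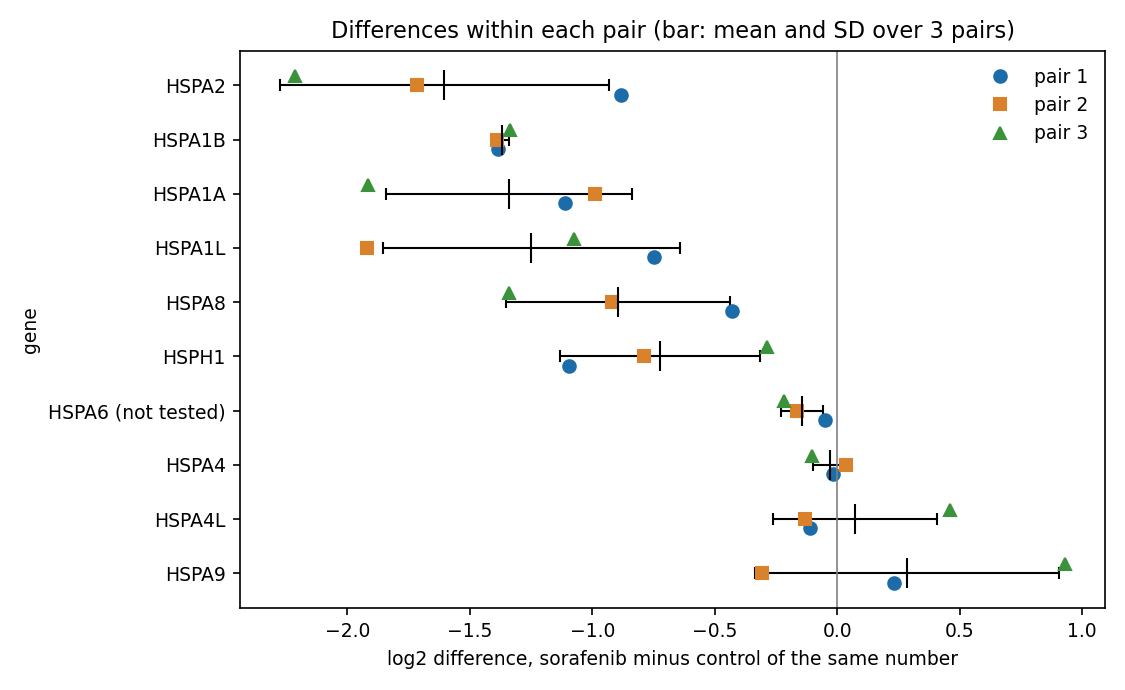
Log2 difference, sorafenib minus control, within each pair (x axis) for each family gene (y axis); symbols are the 3 pairs and bars the mean and SD. HSPA1B has the tightest pairs (−1.38, −1.39 and −1.33), and HSPA4, HSPA4L and HSPA9 lie on both sides of 0.

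The HSP110 genes encode nucleotide exchange factors of HSP70. HSPH1 (HSP105, chr13:31134973-31162388), the heat-inducible member, read 11.03, 11.51 and 12.67 in control and 9.93, 10.72 and 12.39 in sorafenib. It was lower in every pair, with differences of −1.10, −0.79 and −0.29 and a mean of −0.72 ± 0.41. It did not pass (adjusted p = 0.0846; 0.157 in the paired fit), and it passed in the paired trended fit without pair 3, at −0.94 (adjusted p = 0.00239). HSPA4 (APG-2, chr5:133052013-133106449) read 10.32, 11.18 and 11.36 in control and 10.30, 11.22 and 11.25 in sorafenib. The HSPA4 pairs differed by −0.02, 0.04 and −0.10, with a mean of −0.03 ± 0.07 (95% interval −0.40 to 0.34 in the paired fit; adjusted p = 0.933), and the sign turned without pair 3 (0.0097). HSPA4L (APG-1, chr4:127781796-127840733) read 8.17, 8.55 and 6.95 in control and 8.06, 8.42 and 7.41 in sorafenib. Its pairs went both ways, at −0.11, −0.13 and 0.46, with a mean of 0.07 ± 0.34 (95% interval −0.38 to 0.52; adjusted p = 0.857) that turned to −0.12 without pair 3 and to −0.0025 with median scaling. The differences between HSPH1 and the other HSP110 genes were not tested.

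HSPA9 (mortalin, chr5:138553756-138575401), the mitochondrial HSP70 of protein import and iron-sulphur cluster assembly, read 13.58, 13.20 and 12.81 in control and 13.81, 12.89 and 13.74 in sorafenib. Its pairs differed by 0.23, −0.31 and 0.93, so pairs 1 and 3 were higher and pair 2 lower. The mean of 0.28 ± 0.62 did not pass (95% interval −0.32 to 0.89; adjusted p = 0.565 in the paired fit) and was −0.04 without pair 3. HSPA5, the HSP70 of the endoplasmic reticulum, chosen for mention after its values were seen, had differences of 0.20, −0.80 and 1.43, with the same signs.

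The genes that work with HSP70 were taken from lists written from general knowledge, with earlier results of these data known. Of 11 J-domain partners 10 were tested: 2 were lower and 2 higher in all pairs, and the list median was −0.02. DNAJA1, a main cytosolic J-domain partner, fell, with differences of −1.05, −0.89 and −0.85 (mean −0.93 ± 0.11; adjusted p = 0.0355; 0.101 in the paired fit). DNAJB1, the heat-inducible HSP40, differed by −0.64 ± 0.41 (adjusted p = 0.12), DNAJA2 by 0.19 ± 0.11 and the ribosome-associated DNAJC2 by 0.52 ± 0.45. DNAJC2 was detected on only 4 of 6 arrays and read 5.18 and 5.20 in pair 1. Of 9 exchange and handover factors 7 were tested, 2 lower and 1 higher in all pairs, with a median of 0.07 and 0 called. STIP1 (HOP), which passes clients from HSP70 to HSP90, differed by −0.54 ± 0.15 (adjusted p = 0.0877), the ubiquitin ligase STUB1 (CHIP) by −0.34 ± 0.05 and BAG4 by 0.50 ± 0.41.

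All 15 mitochondrial partners were tested. In every pair 6 of them were higher, a direction that 21.5% of all tested symbols shared, and 2 were lower, and the list median was 0.15. GRPEL2, a mitochondrial nucleotide exchange factor of HSPA9, rose, at 0.67, 0.95 and 0.99 in the 3 pairs (mean 0.87 ± 0.17; adjusted p = 0.0489; 0.111 in the paired fit). DNAJA3 (TID1), the J-domain partner of HSPA9, differed by 0.48 ± 0.17 (adjusted p = 0.0833), the matrix protease LONP1 by 0.46 ± 0.28 and DNAJC15 by −0.50 ± 0.40.

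Among the heat shock factors, HSF1 was detected on 0 of 6 arrays, with log2 levels of 4.83 to 5.33, and was not tested. HSF2 differed by 0.74 ± 0.28 and was higher in every pair (adjusted p = 0.0828), and HSBP1, which binds heat shock factors, differed by −0.40 ± 0.17. Of 11 other HSF1 targets 8 were tested, 4 lower and 1 higher in all pairs, with a median of −0.26. HSP90AA1, the inducible HSP90, fell, with differences of −0.97, −0.79 and −0.72 (mean −0.83 ± 0.13; adjusted p = 0.0384; 0.111 in the paired fit). AHSA1, an activator of HSP90, differed by −0.61 ± 0.14, the constitutive HSP90AB1 by −0.31 ± 0.22 and the small heat shock protein HSPB8 by 0.79 ± 0.65. Of 7 other HSP70-related genes 6 were tested, 1 lower and 2 higher in all pairs, with a median of 0.14. HSPA13 (STCH) differed by 0.74 ± 0.26 (adjusted p = 0.105), HSPA7, a pseudogene close to HSPA6 in sequence, by 0.26 ± 0.21 and HSPA12B by −0.47 ± 0.52. HSPA7 was detected on only 3 of 6 arrays, at log2 levels of 5.51 to 6.14 over all arrays. HSPA12B was detected on 4 of 6 and read 4.94 and 4.87 in pair 3.

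**Figure D3:**
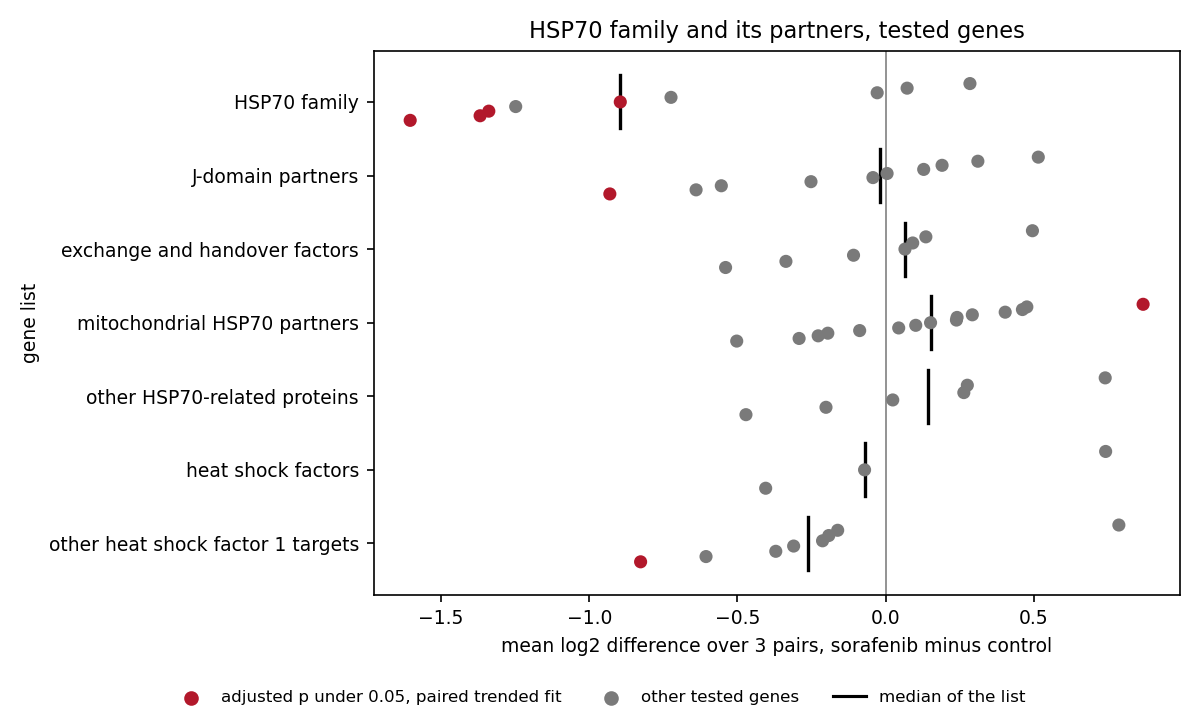
Mean log2 difference over 3 pairs (x axis) of each tested gene of the HSP70 family and of the lists of its partners (y axis), with the list median as a bar. The HSP70 family median is −0.90, and the other lists have medians of −0.26 to 0.15. DNAJA1, HSP90AA1 and GRPEL2 are the only genes of these other lists that the paired trended fit called, and the paired fit called none.

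The symbols outside the family whose 3 pair differences lay nearest to the mean of HSPA1A and HSPA1B (−1.25, −1.19 and −1.62), by Euclidean distance over the pairs, were SLC35G1 (listed as TMEM20), PCDHB5, LYSMD4, PLEKHA8P1 (listed as PLEKHA9) and ANKRD37. Their distances were 0.156, 0.204, 0.248, 0.366 and 0.381 log2 units, and their mean differences ran from −1.40 to −1.19. With 3 pairs this is a description of likeness only.

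**Figure D4:**
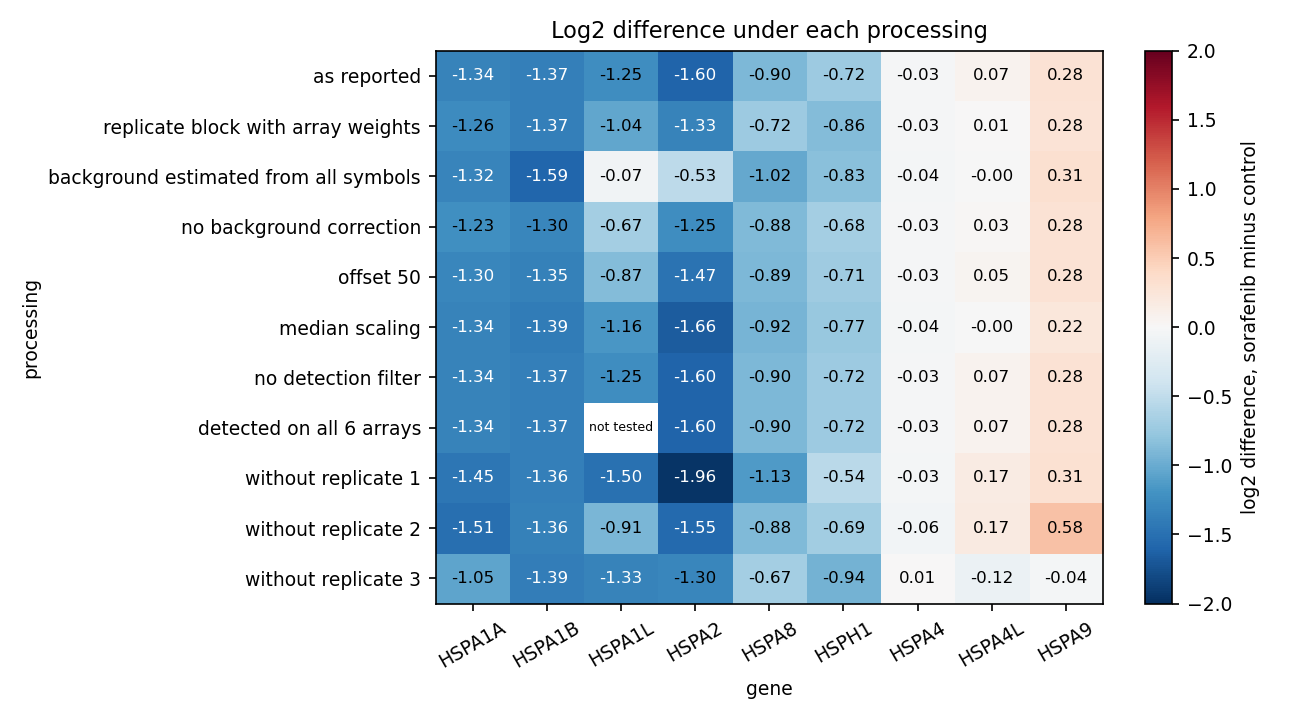
Log2 difference of each tested family gene (x axis) under each way of processing the arrays (y axis), sorafenib minus control, with the value in each cell. HSPA1A, HSPA1B, HSPA2, HSPA8 and HSPH1 stay below 0 in every row, a sign that only median scaling could have turned. HSPA1L and HSPA2 shrink to −0.07 and −0.53 when background is estimated from all symbols.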

How the data were processed

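Total RNA of 6 samples was made into biotin-labelled cRNA and hybridised to BeadChips, per the labels' protocols. The authors' deposited tables hold 1 non-normalized signal intensity per symbol and array, each followed by a detection p-value, per the file headers; how probes were combined is not given in the sources used here. The deposited log2 table was not used, since its sorafenib columns were almost empty. Both tables were joined by symbol. Background was corrected by neqc (limma 3.58.1, R 4.3.3; offset 16) from the detection p-values of 27247 symbols that were whole multiples of 1/770 on all arrays (tolerance 0.001), as for single probes set against 770 negative controls. Arrays were quantile-normalized, and the normalized intensities were then put on the log2 scale. The tests covered the 14641 symbols whose detection p was below 0.05 on 3 or more arrays.

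Groups were compared by limma with replicate number as a block (two-sided, Benjamini-Hochberg over all tested symbols). Arrays of the same number were taken as pairs, and their deviations from group means correlated at 0.904, 0.791 and 0.926. Such deviations were not compared between different numbers, so these values alone cannot show which arrays belong together. Correlations of the levels themselves, given above, were higher within a number than between numbers. Members and lists were chosen with earlier results of these data known. The text names all members, up to 4 partners per list with the largest difference among those of 1 direction in all pairs, HSF1 and HSF2. Median intensity was 134 to 171 per array, with 13195 to 15227 symbols detected; the number of arrays limits the precision. Alternatives were the block, eBayes options, array weights, background, offset, scaling, detection filter and leaving out each pair. Gene names, positions and promoters are from RefSeq (GRCh38.p14); probe positions were not used.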

Additional observations from a re-analysis of the deposited data

How the results depend on the processing

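HSPA1A, HSPA1B, HSPA1L, HSPA2, HSPA8 and HSPH1 kept their direction with median scaling, the only alternative that could have turned it. Both background choices and offset 50 keep the order of symbols on each array before quantile normalization, so no pair can change sign. Array weights only reweight pairs that were all lower. The remaining alternatives leave the difference as it is or leave out 1 of 3 pairs that were all lower. Without the replicate block 0 members and 0 symbols passed (310 at an unadjusted p under 0.05). The block with trended, robust estimation called 4 members and 141 symbols, and with array weights 1 and 10. No background correction called 1 member and 3 symbols and gave a family median of −0.68. Background from all symbols had a mean of 251 to 320 units (SD 604 to 837), against 112 to 139 (SD 20 to 32) as reported. Its mean lay above the median intensity of each array (134 to 171 units), and its low signals should be read with that limit. It gave a median of −0.53 and 0 calls, also with the trended fit, a combination chosen after seeing the data. Leaving out 1 pair gave 0 to 3 members, 0 to 320 symbols and medians of −1.13 to −0.88, the highest counts without pair 3; with the trended fit it gave 0 to 6 members and 1 to 1375 symbols, (49 without pair 1), fewest without pair 2. Reversed were HSPA4L (−0.0027 with background from all symbols, −0.0025 with median scaling; −0.12 to 0.17 over the pairs left out), HSPA4 (−0.061 to 0.0097) and HSPA9 (−0.039 to 0.58), each without pair 3 and in both fits. The cause was not tested. Leaving out a pair leaves 2 pairs, so its p-values rest on few residuals. Among the members, HSPA6 and HSPA1L were limited by signal near background.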
